A study of Mus musculus with 5 samples.

Results

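The genes that encode subunits of the BAF complexes were examined for binding of one of their own products, the ATPase Smarca4, in differentiating mouse embryonic stem cells (mESCs). The set held 31 listed genes of 21755 protein-coding genes on the 19 autosomes and the X chromosome. A region called as a Smarca4 peak was assigned to a gene when it overlapped the gene body or the 5 kb on either side of it, called here the window. By this rule 203 of the 78911 peaks in the 4 deposited lists lay at 27 of the 31 genes, and the remaining 4 genes, Smarcd2, Smarce1, Pbrm1 and Bcl7b, had no peak in any list. Because the peaks were selected by their calls, the numbers of peaks and the reads of the library in which a peak was called are descriptions. The numbers of peaks were not tested. A fit across called regions used these same reads, so its p-values are descriptions as well.

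Smarca4 ChIP-seq had been done on C57/Bl6 Xmas mESCs, which carry a fluorescent reporter at the X-linked gene Hprt, at day 4 of differentiation after withdrawal of the inhibitors that hold mESCs in the naive state. Female (XX) and male (XY) cells each received, by retrovirus and with drug selection, either the non-silencing control hairpin (Nons) or the hairpin Smarcc1.6, which targets the BAF subunit Smarcc1. This gave 4 groups, which were male Nons, female Nons, male Smarcc1 knockdown and female Smarcc1 knockdown, with 1 ChIP library each, and 1 input library. With 1 library per group no difference between groups has a replicate check, and every interval given here covers counting error only. ChIP does not measure expression, so neither the depletion of Smarcc1 nor the markers of the cell state could be checked in these data.

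BAF (Brg1/Brm-associated factor) complexes use the energy of ATP to slide or eject nucleosomes, and thereby open or close DNA to transcription factors. Each complex has a single ATPase, Smarca4 or its relative Smarca2, joined to core proteins of the Smarcc and Smarcd families and, in canonical BAF and PBAF, to Smarcb1 and Smarce1. Variable subunits then define canonical BAF (Arid1a or Arid1b with a Dpf protein), PBAF (Arid2, Pbrm1, Phf10, Brd7) or the non-canonical complex (Brd9 with Bicra or Bicral). The subunit choice changes with cell type. The complex of mESCs is known for Smarca4, Smarcc1 and Arid1a, whereas neurons exchange Actl6a for Actl6b, Ss18 for Ss18l1, and Phf10 or Dpf2 for Dpf1 or Dpf3.

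The knockdown rests on a 22-base target in the Smarcc1 message, shown here because it identifies the perturbed member. The target matched all 22 bases of a coding exon of Smarcc1 at chr9:110177472-110177493 (mm10, plus strand), 59.8 kb from the start of the gene, and matched the transcripts of no other gene. The guide strand of Nons matched no transcript. Capitals mark the seed, bases 2 to 8 of each guide.
Smarcc1.6 target: gcaggatgaagaagcagttaca
Smarcc1.6 guide: tGTAACTGcttcttcatcctgc
Nons guide: cTTACTCTcgcccaagcgagag

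The sequences below belong to the 4 promoter peaks with the highest fold over input, which is the depth-scaled reads of the calling library divided by the input reads plus 1. They are shown because promoter peaks were the smaller and more CpG-rich class at these genes. Up to 300 bases from the plus strand of mm10 are given, without untranslated exon bases, and capitals mark CpG dinucleotides. The Brd9 stretch, chr13:73942807-73942950, held 1 CpG. The Actl6a stretch, chr3:32705476-32705775, held 11, the Smarcb1 stretch, chr10:75915076-75915375, held 5, and the Dpf2 stretch, chr19:5904151-5904450, held 10. The Brd9 stretch of 144 bases and the Smarcb1 stretch of 300 lay below 1.78 CpG per 100 bp, the median of the other BAF peaks. They therefore do not show the trait of the class.
Brd9: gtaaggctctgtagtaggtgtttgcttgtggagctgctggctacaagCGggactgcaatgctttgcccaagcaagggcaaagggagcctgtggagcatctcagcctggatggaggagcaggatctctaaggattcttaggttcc
Actl6a: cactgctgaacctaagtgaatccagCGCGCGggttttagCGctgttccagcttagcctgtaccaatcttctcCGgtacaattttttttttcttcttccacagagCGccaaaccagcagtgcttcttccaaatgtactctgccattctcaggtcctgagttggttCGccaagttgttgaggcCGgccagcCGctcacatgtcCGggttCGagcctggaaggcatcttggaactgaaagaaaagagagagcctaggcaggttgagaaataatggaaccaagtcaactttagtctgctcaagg
Smarcb1: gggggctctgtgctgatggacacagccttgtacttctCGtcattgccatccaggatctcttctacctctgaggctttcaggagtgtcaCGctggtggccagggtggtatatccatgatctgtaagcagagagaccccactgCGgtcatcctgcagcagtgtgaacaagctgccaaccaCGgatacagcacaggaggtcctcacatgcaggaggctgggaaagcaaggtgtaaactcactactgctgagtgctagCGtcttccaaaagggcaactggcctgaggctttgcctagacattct
Dpf2: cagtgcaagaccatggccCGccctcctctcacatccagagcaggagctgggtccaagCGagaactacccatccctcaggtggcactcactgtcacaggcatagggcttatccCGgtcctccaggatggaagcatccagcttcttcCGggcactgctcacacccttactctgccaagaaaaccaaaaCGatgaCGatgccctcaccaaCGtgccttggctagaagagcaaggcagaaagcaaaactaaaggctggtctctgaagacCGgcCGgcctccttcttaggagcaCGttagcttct

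The libraries were shallow. The deposited values were whole reads multiplied by a step for each library, and 1 read stood for 4.59 scaled reads in male Nons, 7.03 in male knockdown, 8.60 in female Nons and 16.7 in female knockdown. The depths were therefore 21.8%, 14.2%, 11.6% and 5.99% of the input in the same order. The whole lists held 38101, 16740, 21289 and 2781 peaks, and the median peak rested on 9, 8, 7 and 5 reads. A count of 0 reads allows up to 3 reads, which is 50.1 scaled reads in female knockdown and 13.8 in male Nons.

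Peaks at BAF genes were most numerous in male Nons, which also had the longest list. Of the 203 peaks, 96 were called in male Nons, 46 in male knockdown, 53 in female Nons and 8 in female knockdown. That ranking is also that of list size, and that of depth except for female Nons and male knockdown. The BAF peaks were 0.252% of the male Nons list, 0.275% of male knockdown, 0.249% of female Nons and 0.288% of female knockdown. When the same number of top peaks, 2781, was taken from every list, the BAF windows held 4 peaks of male Nons, 6 of male knockdown, 6 of female Nons and 8 of female knockdown. That number was the whole female knockdown list, so its 8 peaks could not change. The 203 peaks merged into 185 loci, of which 11 were called in 2 lists, 3 in 3 lists and 0 in all 4. The 14 shared loci were 7.57% of all BAF loci, and over the windows of all protein-coding genes 9.60% of loci were shared.

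**Figure D1:**
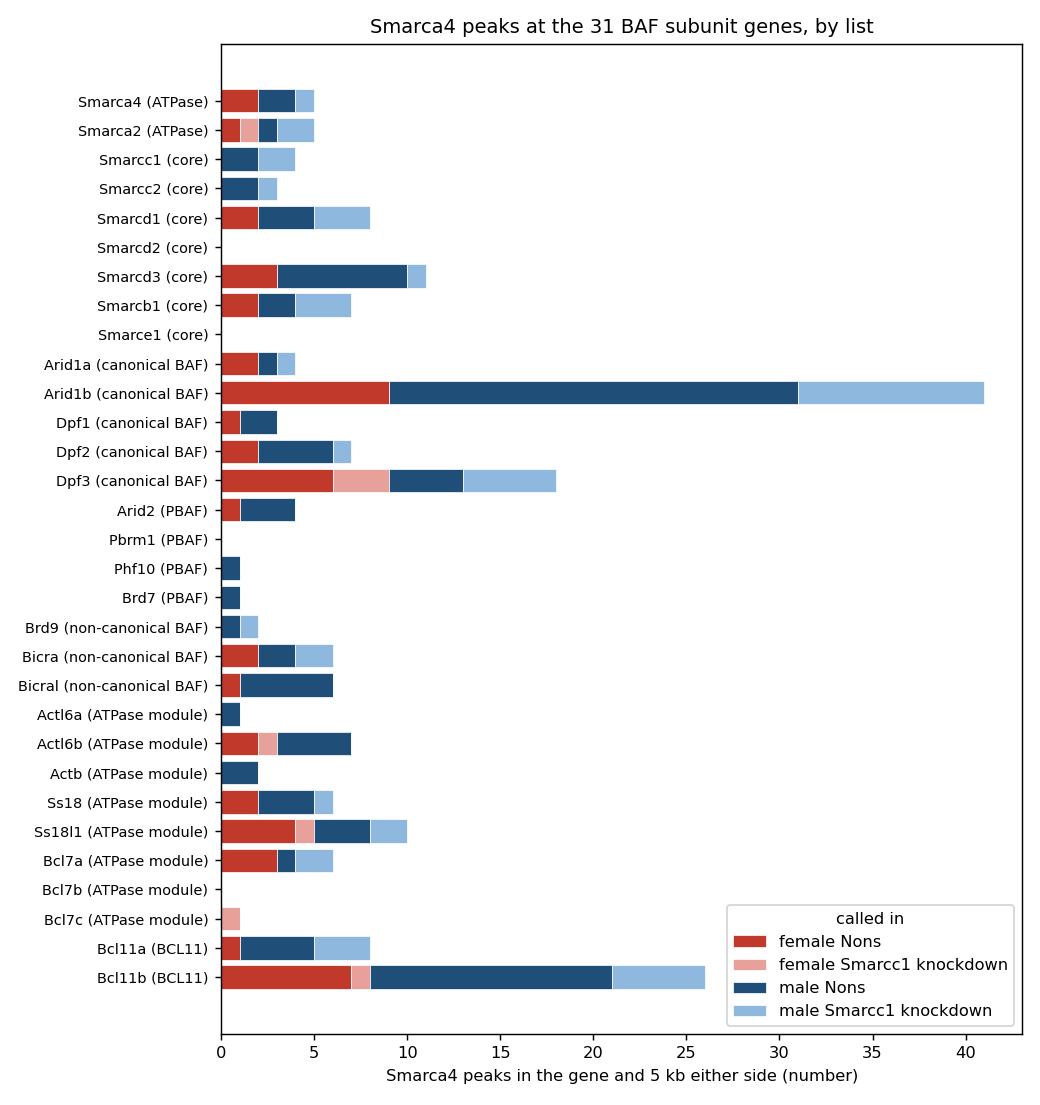
Number of Smarca4 peaks (horizontal axis) in the window of each of the 31 BAF subunit genes (vertical axis, with the module of each subunit), coloured by the list in which they were called, 1 library per list. Arid1b with 41 peaks and Bcl11b with 26 stand apart, and Smarcd2, Smarce1, Pbrm1 and Bcl7b have none.

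A window peak was called at 19 of 31 BAF genes in female Nons, where 37.2% of all protein-coding genes had one. The count was 6 of 31 in female knockdown, against 8.96% of coding genes, 26 of 31 in male Nons, against 50.6%, and 18 of 31 in male knockdown, against 34.6%. BAF genes are long, with a median window of 41.2 kb against 27.4 kb for coding genes, so the peaks were also counted per Mb of window. Female Nons had 22.1 peaks per Mb (95% exact Poisson interval 16.5 to 28.9) against 13.3 over all coding windows. Female knockdown had 3.33 (1.44 to 6.57) against 1.68, male Nons 40.0 (32.4 to 48.9) against 24.7, and male knockdown 19.2 (14.0 to 25.6) against 10.6. Density was above that of coding windows in all 4 lists, although in female knockdown the interval included the coding value. Without Arid1b and Bcl11b, which held 33.0% of the peaks, the densities were 31.6 per Mb in male Nons, 16.0 in male knockdown, 19.1 in female Nons and 3.62 in female knockdown. A list of 32 genes of other chromatin remodellers had 27.7, 13.0, 19.9 and 1.37 peaks per Mb in that order, and a window peak at 24, 20, 19 and 4 of its 32 genes.

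**Figure D2:**
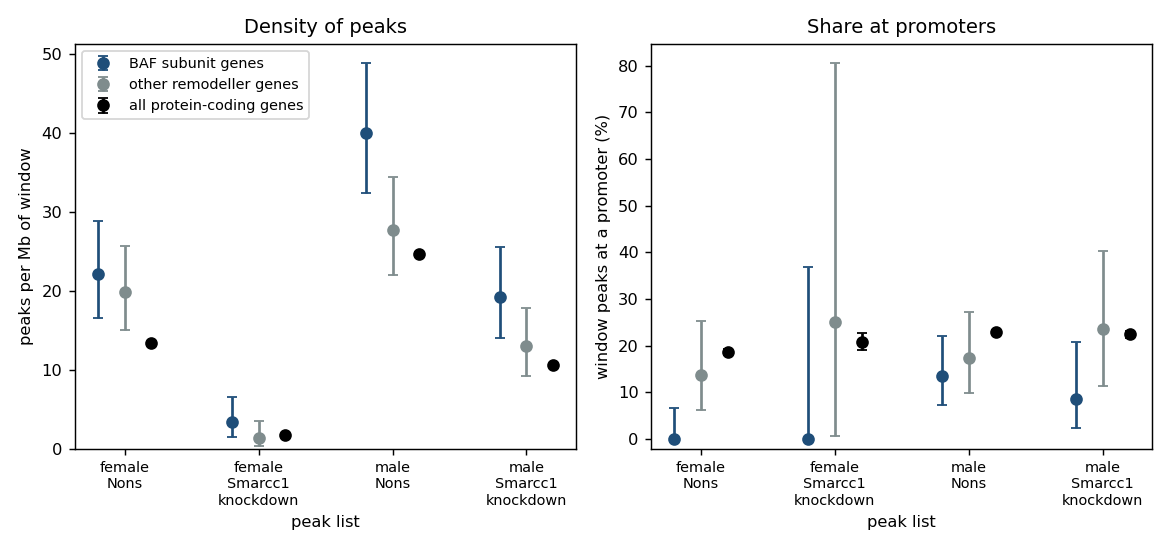
Left, Smarca4 peaks per Mb of gene window in each list for BAF subunit genes, other remodeller genes and all protein-coding genes, with 95% exact Poisson intervals. Right, percentage of window peaks at a promoter, with 95% exact Clopper-Pearson intervals. BAF genes lie above coding genes in density (40.0 against 24.7 per Mb in male Nons). Their promoter share lies below that of coding genes (13.5% against 22.9% in male Nons). Without Arid1b and Bcl11b, which are not left out in the figure, the male Nons share is 21.3% (11.9 to 33.7).

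Most BAF peaks lay inside introns. Of the 203 peaks, 119 were in introns, 31 over coding exons, 17 at promoters (within 1000 bp of any annotated start site), 5 over untranslated exon sequence, 3 over non-coding exons, 12 in the upstream flank and 16 in the downstream flank. None of the 53 female Nons peaks was at a BAF promoter (exact Clopper-Pearson interval 0 to 6.72%), whereas 18.7% of the window peaks of all coding genes were. None of the 8 female knockdown peaks was (0 to 36.9%, coding genes 20.8%). In male Nons 13 of 96 were (13.5%, 7.41 to 22.0, coding genes 22.9%), and in male knockdown 4 of 46 (8.70%, 2.42 to 20.8, coding genes 22.5%). The share moved with the long genes Arid1b and Bcl11b, which had no promoter peak. Without them it was 0 of 37 in female Nons (interval 0 to 9.49%), 21.3% in male Nons (11.9 to 33.7) and 12.9% in male knockdown (3.63 to 29.8). Promoter peaks had a median GC content of 57.7% and 3.56 CpG per 100 bp (n = 17), and the other distinct peaks 53.7% and 1.78 (n = 182).

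By gene, a promoter peak was present at 0 of 31 BAF genes in female Nons, where 11.2% of coding genes had one, and at 0 of 31 in female knockdown, against 1.85%. In male Nons 13 of 31 had one, against 22.0%, and in male knockdown 3 of 31, against 11.2%. BAF genes have a median of 6 annotated start sites against 3 for coding genes, so more sequence counts as their promoter. When promoters were widened to 2500 bp each way, 5 genes in female Nons and 2 in female knockdown had a promoter peak. Only 7 of the 14 genes with a promoter peak had it within 1000 bp of the 5′ end of the gene itself, and they were Smarca2, Brd7, Actl6a, Actl6b, Actb, Ss18 and Bcl11a. The peaks of Smarcd1, Smarcd3, Smarcb1, Dpf1, Dpf2, Brd9 and Bicra were at start sites of shorter transcripts, from 1072 to 59871 bp from the gene's 5′ end. The list of other remodellers had promoter peaks at 10 of 32 genes in male Nons, 9 in male knockdown, 5 in female Nons and 1 in female knockdown.

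The 13 promoter peaks of male Nons held 6 to 17 reads in that library, which is by selection. In the same regions female Nons held 1 to 6 reads (median 3), female knockdown 0 to 4 (median 0, with 0 reads at 7), male knockdown 0 to 8 (median 2) and the input 0 to 8. Scaled to depth, the means were 43.4 in male Nons, 28.5 in female Nons, 16.7 in female knockdown and 16.8 in male knockdown. Reads were thus present in female Nons at all 13 promoters at which female Nons had no call.

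**Figure D3:**
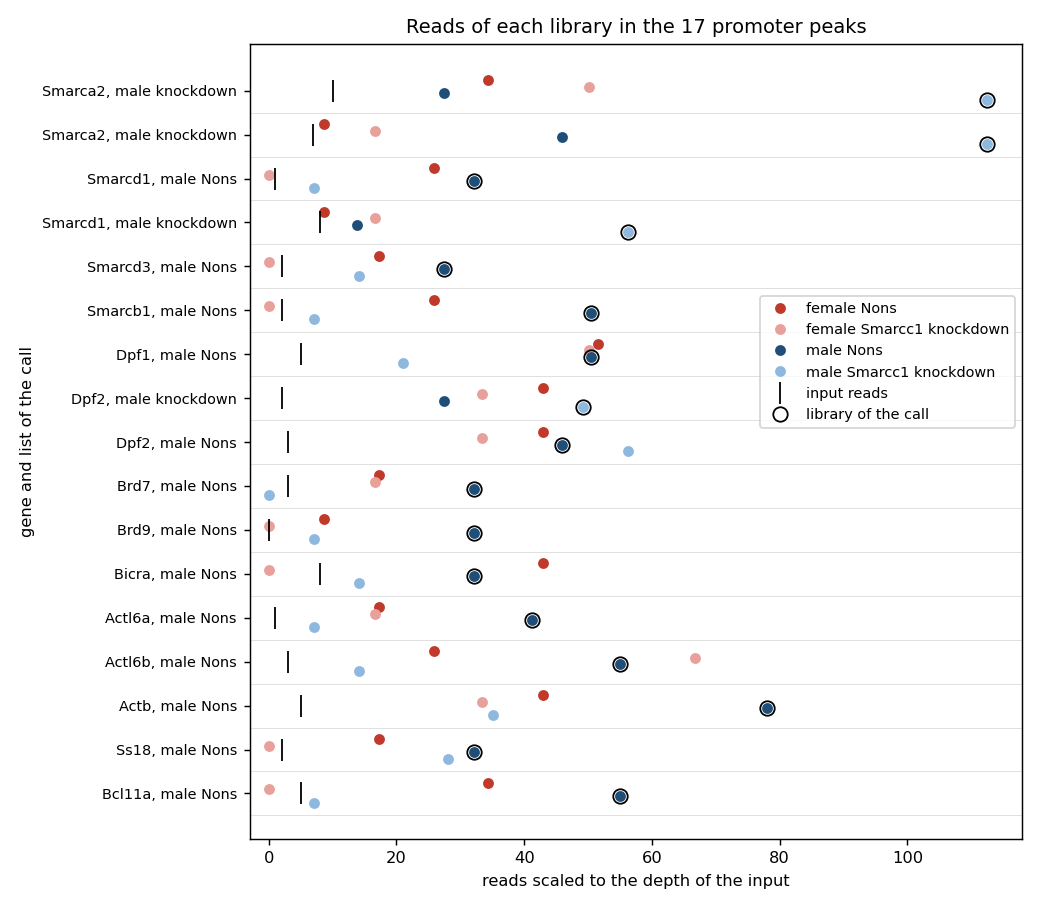
Reads scaled to the depth of the input (horizontal axis) for each library in the 17 promoter peaks of 14 BAF genes (vertical axis, gene and list of the call), with the library of the call ringed and the input reads as a tick. All 17 calls are in the male lists. The Smarca2 promoter in male knockdown lies farthest to the right, with 16 reads in each of 2 adjoining peaks. Ringed values are high by selection.

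Among the ATPases, the Smarca2 promoter was called in male knockdown in 2 adjoining peaks, chr19:26605201-26605950 and chr19:26605951-26606550, both within 1000 bp of the 5′ end of the gene. The upstream one held 16 reads in male knockdown, 6 in male Nons, 4 in female Nons, 3 in female knockdown and 10 in the input. The downstream one held 16, 10, 1, 1 and 7 in the same order. Male knockdown was the highest library in both, also after scaling, which is by selection because both were called in it. Smarca4, which encodes the protein that was immunoprecipitated, had 5 peaks and none at its promoter, 2 in female Nons, 2 in male Nons and 1 in male knockdown. The Smarca4 peak with the highest fold over input, in an intron at chr9:21655951-21656250, held 7 reads in male knockdown, 5 in male Nons, 1 in female Nons, 0 in female knockdown and 0 in the input.

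The core subunits had 33 peaks at 5 of 7 genes, and none in female knockdown. Smarcc1, the scaffold protein that the hairpin targets, had 4 peaks, 2 in each male list and none in a female list, and none overlapped the hairpin target. Its relative Smarcc2 had 2 peaks in male Nons and 1 in male knockdown. Both genes were thus called in the male lists alone, with 0 to 6 reads in the female libraries in those regions. Summed over its regions and scaled, Smarcc1 held 96.3 in male Nons, 148 in male knockdown, 60.2 in female Nons and 50.1 in female knockdown. Smarcc2 held 133, 119, 103 and 16.7 in the same order. The male values are high by selection. The share of coding genes called in the male lists alone was not computed. Smarcd1, a subunit that contacts transcription factors, had 27.4 loci per 100 kb of window, the highest of the 31 genes. At its 3′ end a locus spanning chr15:99713551-99714750 was called in 3 lists. The female Nons peak there held 9 reads in female Nons, 4 in male Nons, 0 in male knockdown, 2 in female knockdown and 7 in the input. In the same order, the male Nons peak held 6, 11, 8, 2 and 4 reads and the male knockdown peak 3, 8, 11, 3 and 5. The 3 calls were staggered, each centred on a different stretch of the locus.

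Smarcd1 also had a promoter peak in each male list, at different start sites. The male Nons peak, chr15:99703201-99703500, held 7 reads in male Nons, 3 in female Nons, 1 in male knockdown, 0 in female knockdown and 1 in the input. The male knockdown peak, chr15:99708151-99708600, held 8 reads in male knockdown, 3 in male Nons, 1 in each female library and 8 in the input. The latter had as many input reads as ChIP reads before scaling. Smarcd3, a subunit known from cardiac and neural differentiation, had 11 peaks, 7 of them in male Nons. Its promoter peak, chr5:24602401-24602700, held 6 reads in male Nons, 2 in female Nons, 2 in male knockdown, 0 in female knockdown and 2 in the input. A coding exon of Smarcd3, chr5:24594901-24595200, was called in both Nons lists and in neither knockdown list, with 6 reads in female Nons, 6 in male Nons, 0 in male knockdown, 0 in female knockdown and 2 in the input. After scaling, 0 reads in male knockdown allows up to 21.1 scaled reads and in female knockdown up to 50.1, against 27.5 measured in male Nons and 51.6 in female Nons.

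Smarcb1, the core subunit that binds the nucleosome face opposite the ATPase and is lost in rhabdoid tumours, had 7 peaks, each in a single list. The promoter peak, chr10:75915001-75915450, lay 6167 bp inside the gene, over a start site of a shorter transcript, and held 11 reads in male Nons, 3 in female Nons, 1 in male knockdown, 0 in female knockdown and 2 in the input. A coding exon, chr10:75904351-75904800, had among the highest folds over input of the set, with 10 reads in male knockdown, 5 in male Nons, 0 in both female libraries and 0 in the input. Scaled to depth, the exon held 70.3 in male knockdown and 22.9 in male Nons. Each of these regions was highest in its calling library, which is by selection. Smarcd2 and Smarce1 had no call. The nearest peak to Smarcd2, in female Nons, lay 5479 bp from the gene and so outside the window.

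Canonical BAF subunits held 73 peaks, and 41 of them were at Arid1b, an alternative to Arid1a and one of the longest genes of the set with a window of 363 kb. Arid1b had 10.5 loci per 100 kb, and Arid1a, the subunit that predominates in mESCs, 4.56 with 4 peaks. At Arid1b 22 peaks were called in male Nons, 10 in male knockdown, 9 in female Nons and 0 in female knockdown, and none was at a start site. At Arid1b 4 intronic peaks were among the peaks with the highest fold over input. An intronic peak at chr17:5319601-5320050 held 8 reads in female Nons, 3 in male Nons, 3 in male knockdown, 1 in female knockdown and 0 in the input. One at chr17:5337451-5337750 held 7 reads in male knockdown, 1 in each female library, 0 in male Nons and 0 in the input. These peaks were high in the calling library alone, and that library was high by selection. A further one, at chr17:5173051-5173350, held 9 reads in male Nons, 4 in female Nons, 6 in male knockdown, 0 in female knockdown and 0 in the input.

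The remaining high-fold Arid1b peak, at chr17:5094601-5095050, held 8 reads in female Nons, 1 in male Nons, 5 in male knockdown, 2 in female knockdown and 1 in the input. Another female Nons peak, at chr17:5229751-5230200, had the same fold, 34.4, with 8, 6, 4, 1 and 1 reads in the same order. At Arid1b 3 loci were called in more than 1 list. The intron at chr17:5304451-5304900 was called in both Nons lists, and its female Nons peak held 7 reads in female Nons, 10 in male Nons, 3 in male knockdown, 0 in female knockdown and 3 in the input. The downstream flank at chr17:5349901-5350200 was called in both male lists with 8 reads in each, beside 4 in female Nons, 1 in female knockdown and 1 in the input. A coding exon at chr17:5334601-5335200 was called in both male lists as well, with 10 reads in the male Nons peak and 7 in the male knockdown peak. The shared Arid1b loci were thus called in both Nons lists or in both male lists, and none was called in female knockdown.

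The Dpf proteins read acetylated and crotonylated histone tails for canonical BAF. Dpf2, the form made in most cells, was the only BAF gene with the same promoter called in both male lists. At chr19:5904151-5904600, a region 8410 bp inside the gene near the start of a shorter transcript, the male Nons peak held 10 reads in male Nons, 8 in male knockdown, 5 in female Nons, 2 in female knockdown and 3 in the input. The male knockdown peak, which covers 300 bases of it, held 6, 7, 5, 2 and 2 in the same order. After scaling the 4 libraries lay between 33.4 and 56.2 in the wider region. Dpf2 also had a shared locus in each flank, both between the Nons lists. The downstream one held 7 reads in the female Nons peak and 8 in the male Nons peak, and the upstream one 7 and 8 as well. The male Nons peak of the upstream locus, with 0 reads in both knockdown libraries and 6 in the input, lay 4941 bp from the gene and was the member nearest to the 5 kb limit. The nearest peak outside the limit was at Bcl11b, 5099 bp away, with 5 reads in female knockdown.

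Dpf1, a neuronal form, had a promoter peak in male Nons at chr7:29313901-29314500, 9950 bp inside the gene, with 11 reads in male Nons, 6 in female Nons, 3 in each knockdown library and 5 in the input. Scaled to depth, female Nons held 51.6, male Nons 50.4, female knockdown 50.1 and male knockdown 21.1. Female Nons was thus level with the library in which the peak was called. The female knockdown value stands for 3 reads, and 0 reads in that library allows up to 50.1 scaled reads. Dpf3, a neuronal and muscle form, had 18 peaks and was 1 of 4 genes called in all 4 lists, with Smarca2, Ss18l1 and Bcl11b. It held 3 of the 8 female knockdown peaks, all within an intron between chr12:83387101 and chr12:83389800. In these 3 regions female knockdown held 5, 5 and 8 reads, female Nons 0, 2 and 4, male Nons 1, 2 and 5, and male knockdown 1, 0 and 2.

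Dpf3 also had a locus called in 3 lists, in the intron next to its 5′ end. At chr12:83486101-83486400 the region called in both female Nons and male knockdown held 6 reads in female Nons, 7 in male Nons, 7 in male knockdown, 2 in female knockdown and 2 in the input. The male Nons peak, shifted towards the 5′ end, held 4, 7, 6, 2 and 1 in the same order. Reads were present in all 4 libraries, and the scaled values in the former region were 51.6 in female Nons, 32.1 in male Nons, 49.2 in male knockdown and 33.4 in female knockdown. A further Dpf3 intron, chr12:83287051-83287500, was called in female Nons with 6 reads and in male knockdown with 7, and female knockdown held 0 reads in both peaks.

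PBAF subunits had the fewest loci, 1.95 per 100 kb over 4 genes, and the ATPases had 3.55 over 2. Non-canonical BAF had 7.34, canonical BAF 8.14 and the core 9.21. The ATPase-bound module of actin-related, Ss18 and Bcl7 proteins had 10.03, and the Bcl11 genes 14.8. Modules hold 2 to 8 genes, and rates varied widely within them. Bcl11b had 22.3 and Bcl11a 7.54, and core genes ranged from 0 at Smarcd2 to 27.4 at Smarcd1. The rate of loci was not computed over all coding windows, and differences between modules were not tested. Pbrm1, a subunit with a row of bromodomains, had no peak in a window of 112 kb, and Arid2, which defines PBAF, had 4. Phf10 had 1, in its downstream flank in male Nons, with 7 reads and 0 in the input. Brd7, a bromodomain subunit, had 1 peak, at its promoter in male Nons, chr8:88361551-88361850. It held 7 reads in male Nons, 2 in female Nons, 0 in male knockdown, 1 in female knockdown and 3 in the input.

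In the non-canonical complex, Brd9, the bromodomain subunit that defines it, had a promoter peak in male Nons at chr13:73942651-73942950 with 7 reads, 1 in female Nons, 1 in male knockdown, 0 in female knockdown and 0 in the input. It gave the highest fold over input of the promoter peaks, 32.1, on an input of 0 reads. Bicra had its promoter peak in male Nons at chr7:15987751-15988050, 59871 bp inside the gene, with 7 reads in male Nons, 5 in female Nons, 2 in male knockdown, 0 in female knockdown and 8 in the input. Scaled to depth, female Nons held 43.0 and male Nons 32.1, and the fold over input was the lowest of the promoter peaks, 3.57. Bicral, the relative of Bicra, had 6 peaks and none at a promoter, 5 of them in male Nons.

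The ATPase-bound module showed promoter peaks at 4 of its 8 genes, all in male Nons. Actl6a, the actin-related subunit of proliferating cells, had a single peak, 448 bp upstream of the gene at chr3:32705401-32705850, with 9 reads in male Nons, 2 in female Nons, 1 in male knockdown, 1 in female knockdown and 1 in the input. Its neuronal counterpart Actl6b had a peak over its start at chr5:137553451-137553900, with 12 reads in male Nons, 3 in female Nons, 2 in male knockdown, 4 in female knockdown and 3 in the input. Scaled to depth, female knockdown held 66.8 and male Nons 55.0 there, although female knockdown had no call. The female knockdown value stands for 4 reads, and 0 reads in that library allows up to 50.1 scaled reads. A peak in the upstream flank of Actl6b, chr5:137550901-137551350, was the only locus of the set called in both female lists, with 8 reads in female Nons, 3 in male Nons, 0 in male knockdown, 7 in female knockdown and 9 in the input.

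Actb, the actin subunit of the complex, is also a main cytoskeletal actin. Its promoter peak, chr5:142907551-142908150, had the most reads of the promoter peaks, 17 in male Nons, with 5 in female Nons, 5 in male knockdown, 2 in female knockdown and 5 in the input. Ss18, the subunit fused in synovial sarcoma, had a promoter peak at chr18:14682151-14682450 with 7 reads in male Nons, 2 in female Nons, 4 in male knockdown, 0 in female knockdown and 2 in the input. An Ss18 intron, chr18:14644801-14645100, was among the highest folds over input, with 6 reads in female Nons, 3 in male Nons, 1 in male knockdown, 0 in female knockdown and 0 in the input. Counts this low in male knockdown, 4 at the Ss18 promoter and 1 in this intron, were not compared.

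Ss18l1, the neuronal counterpart of Ss18, had 10 peaks, with calls in all 4 lists, and none at its single start site. Its coding-exon locus chr2:180052501-180053700 held the male Nons peak with the most reads of the whole set, 21, beside 13 in female Nons, 3 in each knockdown library and 10 in the input. Female Nons was called there in 2 separate peaks, with 10 and 7 reads. The locus was called in both Nons lists and in neither knockdown list. An intronic peak at chr2:180062851-180063150 held 7 reads in male knockdown, 4 in male Nons, 2 in female Nons, 1 in female knockdown and 0 in the input. Of the Bcl7 genes, Bcl7a had 6 peaks, Bcl7b had 0 and Bcl7c had 1, which was called in female knockdown in the downstream flank.

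The Bcl11 genes encode zinc-finger transcription factors that join BAF in lymphoid and neural cells. Bcl11a had a promoter peak in male Nons 806 bp upstream of the gene, chr11:24076801-24077250, with 12 reads in male Nons, 4 in female Nons, 1 in male knockdown, 0 in female knockdown and 5 in the input. A Bcl11a intron, chr11:24112951-24113400, held 7 reads in female Nons, 1 in each male library, 0 in female knockdown and 0 in the input. Bcl11b had 26 peaks, 22.3 loci per 100 kb, and calls in all 4 lists, and none of its peaks was at a promoter. The peak with the highest fold over input of all 203, 83.5, was in a Bcl11b intron at chr12:107953801-107954100, with 5 reads in female knockdown, 0 in female Nons, 3 in male Nons, 5 in male knockdown and 0 in the input. That value rests on 5 reads and an input of 0.

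Bcl11b also had a locus called in 3 lists, in the intron at chr12:107930251-107930850. Over the male Nons peak, which spans it, male Nons held 14 reads, male knockdown 10, female Nons 7, female knockdown 2 and the input 6. The female Nons peak covered its left part and the male knockdown peak its right part. Another Bcl11b intron, chr12:107969551-107970450, was called in both Nons lists, with 8 reads in the female Nons peak and 15 in the male Nons peak, beside 0 and 1 in female knockdown and 1 and 1 in male knockdown. The 14 shared loci of the set thus comprised 9 that the Nons lists shared, 6 that the male lists shared, 4 that female Nons and male knockdown shared and 1 that the female lists shared, with loci in 3 lists counted in each pair. The 9 were 17.3% of the female Nons loci and 9.38% of the male Nons loci, beside 15.6% and 8.42% over all coding windows. The 6 were 6.25% of the male Nons loci and 13.0% of the male knockdown loci, beside 6.75% and 15.8% over coding windows. The 4 were 7.69% of the female Nons loci and 8.70% of the male knockdown loci, beside 6.29% and 7.95%. The 1 was 1.92% of the female Nons loci and 12.5% of the female knockdown loci, beside 1.04% and 8.29%. Female knockdown and the male lists shared 0 of its 8 loci, where 13.2% of its loci in coding windows were shared with male Nons and 5.46% with male knockdown.

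On average, regions without a call were not empty. In the 96 BAF regions called in male Nons, the mean depth-scaled reads were 42.6 in male Nons, 27.1 in female Nons, 20.4 in male knockdown and 14.4 in female knockdown, and the mean input was 4.14 reads. The female knockdown mean stands for 0.865 reads. Female Nons had 0 reads in 4 of the 96, male knockdown in 13 and female knockdown in 48. Over coding windows the regions of male Nons gave 46.1, 26.3, 23.4 and 17.5 in the same order. There female knockdown had 0 reads in 13458 of 29131. In the 53 regions of female Nons, that library held 68.0, female knockdown 22.7, male Nons 19.8, male knockdown 18.4 and the input 4.13. In the 46 regions of male knockdown, the values were 58.5 in male knockdown, 20.6 in male Nons, 20.6 in female Nons, 17.1 in female knockdown and 3.59 in the input. In the 8 regions of female knockdown, that library held 98.1, female Nons 17.2, male Nons 13.2, male knockdown 12.3 and the input 4.125. Of these 8, female Nons had 0 reads in 4 and male knockdown in 3. In each case the calling library was highest, which is how the regions were chosen, and the uncalled libraries lay above the input. The input itself took part in the calls, so the distance to it is also a description.

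To compare the groups without regions chosen on their own reads, reads were summed over BAF regions called in other libraries. In 136 regions called in a male list, female knockdown held 120 reads and female Nons 391, a depth-scaled ratio of 0.596 (95% exact conditional interval 0.482 to 0.733), with female knockdown higher in 27 regions and lower in 103. Over all coding windows the ratio was 0.638 (0.631 to 0.646), which the BAF interval includes. In 59 regions called in a female list, male knockdown held 151 reads and male Nons 237, a ratio of 0.976 (0.791 to 1.20), with 31 regions higher and 28 lower, beside 0.973 over coding windows. The male interval includes 1. In the 16 promoter regions alone the female ratio was 0.713 (0.391 to 1.25), on 18 reads in female knockdown and 49 in female Nons, and its interval includes 1 as well. In 54 regions called in a knockdown list, female Nons held 126 reads and male Nons 230, a ratio of 1.03 (0.820 to 1.28) beside 1.09 over coding windows. The female and male knockdown ratios come from different regions, and their difference was not tested.

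**Figure D4:**
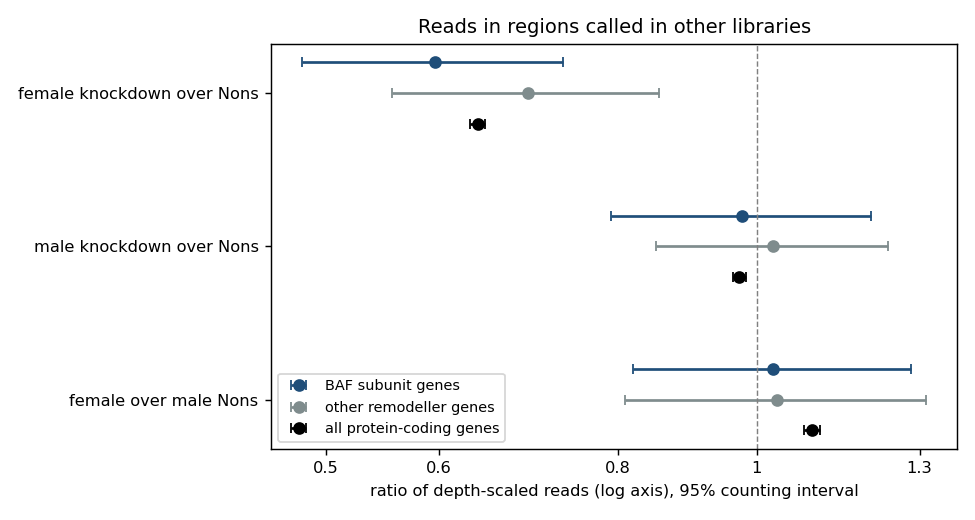
Ratio of depth-scaled reads (log axis) for 3 comparisons in regions called in libraries that are not compared, for BAF subunit genes, other remodeller genes and all protein-coding genes, with 95% exact conditional intervals for counting error. The female knockdown ratio lies below 1 in all 3 gene lists (0.596 for BAF genes), and the intervals of the other comparisons include 1 for BAF genes.

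A fit of sex plus hairpin across all 77716 called regions (edgeR quasi-likelihood test, 1 residual degree of freedom) called 0 regions for female over male and 0 for knockdown over Nons at an adjusted p under 0.05, a background of 0% for both. Of the 199 distinct BAF regions, 0 passed for either term, and the smallest adjusted p among them was 0.999 and 0.998 (Benjamini-Hochberg, edgeR). At an unadjusted p under 0.05 there were 4 BAF regions for sex and 0 for the hairpin, of 377 and 347 regions in all. DESeq2 also called 0, with 3 and 1 BAF regions at an unadjusted p under 0.05. The regions were called on the same reads that the fit used, so its p-values describe selected regions. With 4 to 21 reads in the calling library, differences at single BAF loci were not detectable with this design.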

How the data were processed

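Smarca4 ChIP-seq of day 4 mESCs was analysed from 4 peak lists, 1 per ChIP library, with groups taken from the sample titles. Per the study's methods, single-end reads went through trim_galore and bowtie2, against mm10 (a reporting form names tophat), duplicates were removed, and peaks were called per library against the input with MACS2 in Seqmonk. The submitters' notes also list bcl2fastq. Versions of MACS2 and bcl2fastq are not given in the sources used here. The deposited ChIP values are a signal per region, scaled by the authors to the input depth. They were whole multiples of 1 step per library for 100% of values (tolerance 0.01 reads), and reads were recovered by division. The deposited input values are whole counts. The lists held no fold, p or q of the caller, which the plan had assumed, so fold over input was computed as stated in the report and used in their place. Duplicate removal limits the highest regions, and binding can go uncalled.

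Genes, start sites and exons came from GENCODE release M21 (GRCm38), and sequence from RefSeq GRCm38. Overlap was counted from 1 bp. The hairpin sequences are the study's own. Intervals are at 95%. Ratios and the main fit used regions with under 50 input reads. Recovered reads were tested with edgeR 4.0.16 and DESeq2 1.42.0 in R 4.3.3, with library sizes proportional to depth and p-values adjusted over all regions; this was checked on simulated data. Python 3.11.15, pandas 2.3.3, scipy 1.17.1 and pysam 0.24.0 did the rest. All promoter peaks, all loci in 2 or more lists, and the 10 remaining peaks with the highest fold were named, with the other members given as counts. The members and lists were chosen with earlier results of these data known. No paired analysis was possible because each group has 1 library and no replicate numbers.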

Additional observations from a re-analysis of the deposited data

How the results depend on the processing

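Of 114 alternatives over 17 results, 83 kept the value within 1.5 times the reported count or within the reported interval and 31 moved it. Some of the 83 could not move. No BAF peak had 50 or more input reads, so leaving out or restoring such regions changed no BAF count or ratio. The equal number and the common minimum left the female knockdown list whole, and a promoter count of 0 stays 0 in any part of a list. With the 50% of each list of highest fold, window peaks were 45 in male Nons, 22 in male knockdown, 26 in female Nons and 3 in female knockdown, genes with a window peak were 11 in male knockdown and 3 in female knockdown, and promoter genes 1 in male knockdown. When an equal number of peaks was taken from the top of each list, male Nons had 4 peaks at 3 genes and 1 promoter gene, male knockdown 6 peaks at 5 genes and 0 promoter genes, and female Nons 6 peaks at 4 genes. With a minimum of 83.5 scaled reads for all lists, male Nons had 1 peak at 1 gene and 0 promoter genes, male knockdown 4 peaks at 3 genes and 1 promoter gene, and female Nons 7 peaks at 7 genes, beside 8 peaks in female knockdown. Under these last 2 settings male Nons no longer had the most peaks. Both settings came from the shallowest library, female knockdown. Its whole list was 2781 peaks and its lowest peak, with 5 reads, set the minimum, so its 8 peaks stayed by construction. In the fold and in the minimum 1 read also counts for more in a shallower library. The order under them therefore follows from the settings. A promoter of 2500 bp on either side gave 17 genes in male Nons, 8 in male knockdown, 5 in female Nons and 2 in female knockdown. Start sites of coding transcripts alone gave 8 genes in male Nons and 1 in male knockdown, and the 5′ end of the gene alone, added after seeing the data, 6 and 1. Without Arid1b and Bcl11b, also added after seeing the data, male Nons had 61 peaks.

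The 3 ratios stayed within their intervals under all alternatives run, at 0.568 to 0.713 for female knockdown over Nons, 0.930 to 1.07 for male knockdown over Nons and 0.825 to 1.03 for female over male Nons. For 16 promoter regions alone the female interval, 0.391 to 1.25, included 1. No promoter region was called in a female list, so the male ratio has no promoter value. The count test called 0 BAF regions in every setting. Leaving out a replicate was not possible with 1 library per group. Depth is a further limit, since calls rest on a few reads and 0 reads in female knockdown does not show absence.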

Other observations

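Some peaks in the windows of BAF genes also lay near the start of another gene. Of the 203 peaks, 15 lay within 1000 bp of a start site of another gene. They include promoter peaks of Smarcd1 and Bcl11a, and the nearest gene of each peak was not determined. The flank of Smarcb1 reached the promoter of Mmp11, a secreted metalloproteinase gene, which had a peak in male knockdown (10 reads, 5 in female Nons, 3 in male Nons, 0 in female knockdown and 3 in the input) and a further one in female Nons (8 reads, 4 in male Nons, 7 in male knockdown, 0 in female knockdown and 6 in the input). The downstream flank of Smarcd1 held a female Nons peak at Gpd1, the cytosolic glycerol-3-phosphate dehydrogenase gene, with 8 reads and 6 in the input, and that of Actl6b a female Nons peak at Tfr2, a transferrin receptor gene, with 9 reads and 9 in the input. The upstream flank of Ss18l1 held a female Nons peak at the proteasome subunit gene Psma7, with 7 reads and 1 in the input. At the limit of 1000 bp, female Nons thus had calls at promoters of some genes beside BAF genes and none at BAF promoters. Over all coding genes 11.2% had a female Nons promoter peak. With 2500 bp on either side, 5 BAF genes had one, so the contrast depends on the limit. It rests on few peaks and was not tested.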
